A study of Mus musculus with 9 samples.

Results

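The *elastic fibre and matrix crosslinking genes* are 10 genes fixed by name: the crosslinking enzymes *Lox*, *Loxl1* and *Loxl2*, elastin (*Eln*), the microfibril genes *Fbn1*, *Mfap4* and *Mfap5*, and the fibulins *Fbln1*, *Fbln2* and *Fbln5*. Of the 10, 8 were among the 14443 genes that were listed once in each of 3 deposited expression tables. *Mfap4* and *Fbln2* were not analysed here. RNA was sequenced from neonatal rat ventricular cardiomyocytes (NRVMs), which are heart muscle cells of newborn Sprague-Dawley rats kept in culture. The cells were plated for 48 h and then infected at a multiplicity of infection of 50 with an adenovirus for LacZ, Nrf1 or Nrf2, so that the control cells too carried a virus, and all groups were collected 48 h after infection. LacZ is a bacterial enzyme that served as the control, and Nrf1 and Nrf2 are related transcription factors of the cap'n'collar family known for proteasome and antioxidant genes. The vectors carried a CMV promoter, which is not restricted to heart muscle cells, and a red fluorescent protein. The Nrf2 insert was of the mouse, and for Nrf1 both a mouse and a human insert were made, of which the labels name neither. Each group had 3 libraries. The organism entry of the labels names the mouse, whereas the cell description and the genome used by the authors are those of the rat. The labels do not say whether the 3 libraries of a group came from separate cultures or animals, so p-values measure only the spread between these libraries, which may be technical.

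Elastic fibres have a core of crosslinked elastin on a scaffold of microfibrils. Microfibrils are built on fibrillins, to which small microfibril-associated glycoproteins attach, and fibulins bind elastin and link it to microfibrils and to cells. Lysyl oxidases are secreted copper enzymes that oxidise lysines of elastin and collagen, after which the chains crosslink. In the heart these fibres and crosslinks are made largely by fibroblasts and by the smooth muscle cells of vessels, and they set how the wall stretches and recoils.

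The tables give the mean of each group and no value per library. Whole reads per library were recovered from those means, as explained under the processing, and the values below are recovered reads per 1000000 reads of the library (CPM). The libraries have no number in the tables, so they are called the shallowest, middle and deepest library of their group. They held between 7874370 and 11905027 reads. Libraries of 1 group correlated at 0.992 to 0.996 across genes and libraries of different groups at 0.916 to 0.957. *Nfe2l2*, which encodes Nrf2, lay between 6831 and 7986 CPM in the Nrf2 libraries and between 289 and 374 CPM in the others. The level of the gene that encodes Nrf1 was not analysed here.

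In cells with Nrf1, elastic fibre and crosslinking genes were lower in every role. The 7 genes past a fold of 1.5 fell by between 2.50 on the log2 scale for *Mfap5*, the microfibril-associated glycoprotein MAGP-2, and 1.02 for the crosslinking enzyme *Loxl1*, and *Loxl2* had a difference of -0.43. In cells with Nrf2 the picture was divided. *Lox*, *Loxl1*, *Fbn1* and *Fbln5* fell, *Mfap5* rose, and *Eln* ranged over 16.1-fold between libraries of the same group. A gene was called where the adjusted p of limma over all 14442 genes fitted was under 0.05 and the fold was past 1.5. Under this rule 7 of the 8 measured genes were lower in Nrf1 than in LacZ and none was higher, where 17.2% of all genes were lower and 8.16% were higher. Between Nrf2 and LacZ 4 were lower and 1 was higher, where 10.4% of all genes were lower and 6.75% were higher. Between Nrf2 and Nrf1 4 were higher in Nrf2 and none was lower, where 9.97% of all genes were higher and 4.09% were lower. *Eln* is among those called higher, although its libraries overlapped between these groups. With no limit on the fold, limma put 8 genes lower in Nrf1 than in LacZ and 0 higher, and 6 lower and 1 higher in Nrf2 than in LacZ. Between Nrf2 and Nrf1 it put 7 higher and 0 lower in Nrf2, and an unadjusted p under 0.05 gave the same counts. The share of all genes past these p thresholds alone was not counted, so these counts cannot be read as particular to the 8 genes. The median log2 difference of the 8 genes was -1.32 for Nrf1 over LacZ, -0.60 for Nrf2 over LacZ and 0.54 for Nrf2 over Nrf1, beside medians of -0.10, -0.10 and 0.01 over all genes fitted. The comparisons with LacZ share their control libraries, so the 2 sets of differences are not independent.

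**Figure D1:**
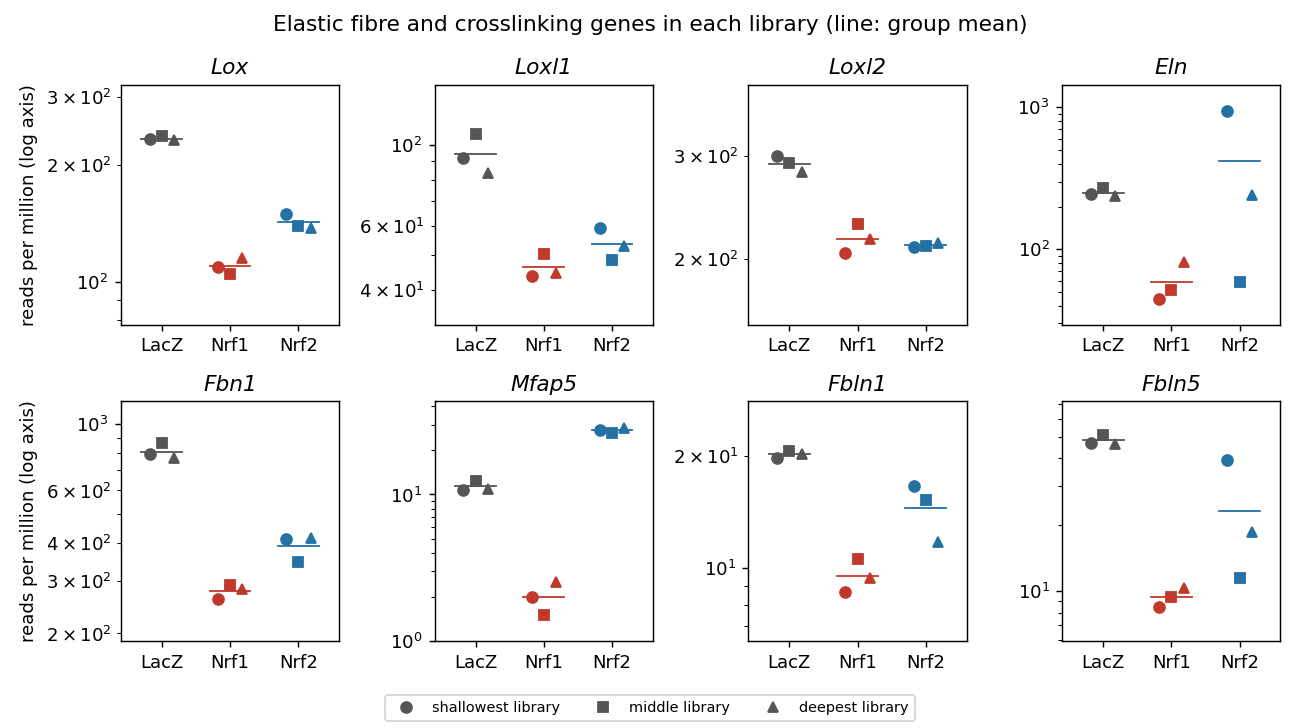
Level of each measured elastic fibre and crosslinking gene in each library, in CPM on a log axis that differs between panels. Points are libraries, marked by their depth order within the group, and lines are group means. *Mfap5* separates all 3 groups, and *Eln* spans from 58.9 to 951 CPM among the Nrf2 libraries.

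The crosslinking enzymes were compared first. *Lox*, the enzyme for which the family is named, had 233, 238 and 232 CPM in the shallowest, middle and deepest LacZ library, 109, 105 and 115 CPM in the Nrf1 libraries and 149.9, 139.6 and 137.8 CPM in the Nrf2 libraries. The 3 groups did not overlap, and the order was LacZ, Nrf2, Nrf1. The means were 234 ± 3.10 CPM in LacZ, 109.9 ± 5.02 CPM in Nrf1 and 142 ± 6.50 CPM in Nrf2 (SD, n = 3 each). The log2 difference was -1.09 ± 0.043 (SE) for Nrf1 over LacZ (limma, adjusted p = 2.22e-14) and -0.72 ± 0.043 for Nrf2 over LacZ (adjusted p = 3.22e-11). *Lox* was higher in Nrf2 than in Nrf1 by 0.37 ± 0.043 on the log2 scale (limma, adjusted p = 5.30e-07), which is under a fold of 1.5.

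*Loxl1*, a lysyl oxidase that acts on elastin in particular, had 91.7, 107 and 83.7 CPM in LacZ, 43.7, 50.2 and 44.6 CPM in Nrf1 and 59.2, 48.5 and 52.9 CPM in Nrf2. All LacZ libraries lay above the others, and the middle Nrf2 library lay below the middle Nrf1 library. The log2 difference was -1.02 ± 0.082 (SE) for Nrf1 over LacZ (limma, adjusted p = 1.48e-09) and -0.81 ± 0.082 for Nrf2 over LacZ (adjusted p = 7.90e-08). The difference of 0.21 ± 0.082 between Nrf2 and Nrf1 had an adjusted p of 0.042 by limma, and it was above 0.05 in 5 of the fits that left out 1 library, at most 0.232 without the shallowest Nrf2 library.

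*Loxl2*, which crosslinks collagen IV of basement membranes, had 299.7, 292 and 282 CPM in LacZ, 204, 229.7 and 216 CPM in Nrf1 and 209.6, 211 and 213 CPM in Nrf2. Both the Nrf1 and the Nrf2 libraries lay below LacZ without overlap, and they overlapped each other. The log2 difference was -0.43 ± 0.040 (SE) for Nrf1 over LacZ (limma, adjusted p = 1.77e-08) and -0.46 ± 0.040 for Nrf2 over LacZ (adjusted p = 9.70e-09), both under a fold of 1.5. Between Nrf2 and Nrf1 *Loxl2* differed by -0.04 with a 95% interval from -0.12 to 0.05 (limma, adjusted p = 0.513), so a difference past 1.5-fold lies outside the interval.

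Elastin, the protein of the elastic core, differed between the Nrf2 libraries by 16.1-fold, beside 1.14-fold between the LacZ libraries and 1.82-fold between the Nrf1 libraries. *Eln* had 244, 268 and 236 CPM in the LacZ libraries and 44.5, 51.5 and 81.0 CPM in the Nrf1 libraries. In the shallowest, middle and deepest Nrf2 library it had 951, 58.9 and 243 CPM, from 9649, 666 and 2891 reads. All Nrf1 libraries lay below all LacZ libraries, whereas 1 Nrf2 library lay above LacZ, 1 lay within it and 1 lay below it and within the range of Nrf1.

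*Eln* fell by 2.13 ± 0.54 (SE) on the log2 scale in Nrf1 against LacZ (limma, adjusted p = 0.00233). The fit over all 9 libraries carries the spread of the Nrf2 libraries into that error, and a fit of the LacZ and Nrf1 libraries alone gave the same difference with an adjusted p of 6.08e-10. Between Nrf2 and LacZ *Eln* differed by -0.06, with a 95% interval from -1.20 to 1.07 (limma, adjusted p = 0.933). Between Nrf2 and Nrf1 the difference was 2.06 ± 0.54 (adjusted p = 0.00385), although the libraries of these groups overlapped. The same fit carries the smaller spread of the other groups into both Nrf2 comparisons. Their errors, intervals and p-values thus do not measure the spread of *Eln* among the Nrf2 libraries alone, which is larger.

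The direction of *Eln* between Nrf2 and LacZ depended on which library was kept. The authors' means were 4155 in Nrf2 and 2338 in LacZ, a ratio of 1.78. Without the shallowest Nrf2 library the log2 ratio of these means went from 0.83 to -0.64. In limma the difference was -1.06 without the shallowest Nrf2 library (adjusted p = 0.0183) and 0.95 without the middle Nrf2 library (adjusted p = 0.0281), both past the threshold in opposite directions.

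**Figure D2:**
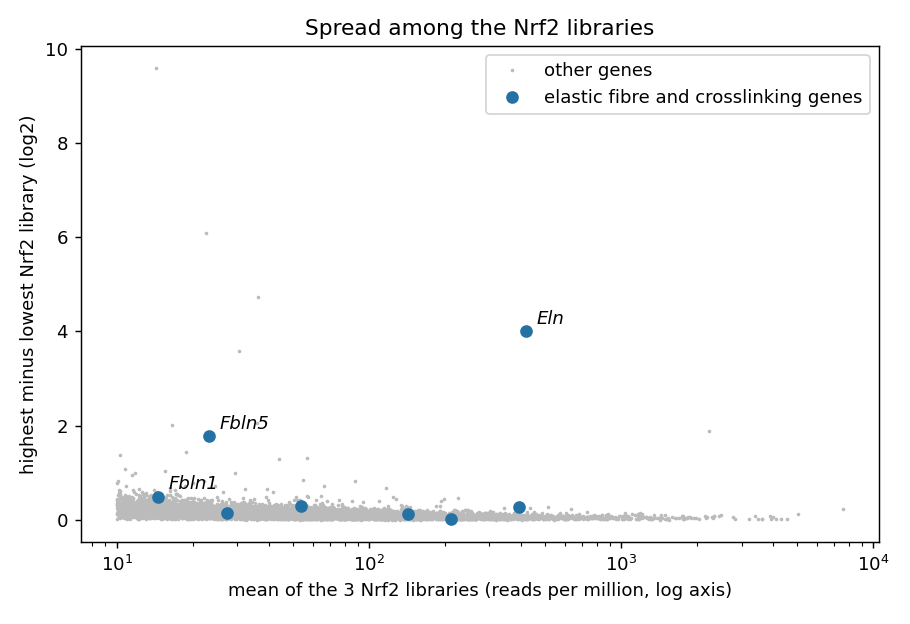
Spread of each gene among the 3 Nrf2 libraries, as the highest minus the lowest log2 CPM, against its mean level in these libraries on a log axis. Grey points are the other genes of at least 10 CPM and blue points are elastic fibre and crosslinking genes. *Eln*, with a range of 4.01, and *Fbln5*, with 1.77, stand far above the median range of 0.109.

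Among 8362 genes of at least 10 CPM in the Nrf2 libraries the range of *Eln*, 4.01 on the log2 scale, ranked 4, that of *Fbln5*, 1.77, ranked 9 and that of *Fbln1*, 0.49, ranked 74, where the median range was 0.109. The other 5 measured genes had ranges of 0.025 to 0.289 in these libraries. In the Nrf1 libraries *Eln* had a range of 0.86 and ranked 15 of 8265 genes. In the LacZ libraries its range of 0.184 ranked 3064 of 8542 genes. The 3 Nrf2 libraries held 6785, 6515 and 7061 CPM of the fibroblast markers from the shallowest to the deepest and 5487, 5253 and 5171 CPM of the smooth muscle and pericyte markers. These sums are carried by *Col1a1*, *Acta2* and *Tagln*. A few single markers had the library order of *Eln*. Among them were the fibroblast marker *Postn* with 266, 195 and 213 CPM and the smooth muscle marker *Myh11* with 163, 134 and 139 CPM. Most markers of both lists had other orders. The fibroblast marker *Col1a2*, with 6.01, 19.1 and 24.5 CPM, and the pericyte marker *Abcc9*, with 81.1, 85.7 and 86.8 CPM, were lowest in the shallowest library. These single markers were named after their values were seen. The part of these markers in the spread of *Eln* was not tested.

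The microfibril genes moved in opposite directions in the Nrf2 libraries. *Fbn1*, fibrillin-1, the main scaffold protein of microfibrils, had 793, 861 and 770.2 CPM in LacZ, 260.0, 289 and 281 CPM in Nrf1 and 414, 348 and 416 CPM in Nrf2. The groups did not overlap, and Nrf2 lay between LacZ and Nrf1. The log2 difference was -1.55 ± 0.057 (SE) for Nrf1 over LacZ (limma, adjusted p = 7.61e-15), -1.04 ± 0.057 for Nrf2 over LacZ (adjusted p = 7.16e-12). *Fbn1* was higher in Nrf2 than in Nrf1 by 0.50 ± 0.057 (adjusted p = 4.35e-07), under a fold of 1.5.

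*Mfap5*, whose product binds fibrillin microfibrils, had 10.8, 12.3 and 10.9 CPM in LacZ, 1.99, 1.497 and 2.53 CPM in Nrf1 and 27.6, 26.1 and 28.6 CPM in Nrf2. The 3 groups were apart in every library, in the order Nrf2, LacZ, Nrf1, and *Mfap5* was the only measured gene of the 8 called higher in Nrf2 than in LacZ. The means were 11.3 ± 0.832 CPM in LacZ, 2.01 ± 0.517 CPM in Nrf1 and 27.4 ± 1.28 CPM in Nrf2 (SD, n = 3 each). The Nrf1 values rest on 17, 15 and 26 reads.

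*Mfap5* fell by 2.50 ± 0.16 (SE) on the log2 scale in Nrf1 against LacZ (limma, adjusted p = 5.00e-11) and rose by 1.27 ± 0.16 in Nrf2 against LacZ (adjusted p = 1.57e-06). Between Nrf2 and Nrf1 it differed by 3.77 ± 0.16 (adjusted p = 2.58e-13), a fold of 13.6. Leaving out any 1 library moved the last value between 3.58 and 3.95.

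The fibulins were lower in both groups than in LacZ. *Fbln1*, fibulin-1, a glycoprotein of elastic fibres and basement membranes, had 19.7, 20.6 and 20.2 CPM in LacZ, 8.67, 10.6 and 9.44 CPM in Nrf1 and 16.6, 15.2 and 11.8 CPM in Nrf2. The groups did not overlap. The log2 difference was -1.08 ± 0.12 (SE) for Nrf1 over LacZ (limma, adjusted p = 2.44e-07) and -0.49 ± 0.12 for Nrf2 over LacZ (adjusted p = 0.00251), the latter under a fold of 1.5. The difference of 0.59 between Nrf2 and Nrf1 (adjusted p = 5.14e-04) was a fold of 1.503 and so barely past the limit. Leaving out any 1 library moved it between 0.49 and 0.73.

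*Fbln5*, fibulin-5, which brings elastin to microfibrils and binds integrins and *Loxl1*, had 47.0, 50.7 and 46.5 CPM in LacZ and 8.44, 9.38 and 10.3 CPM in Nrf1. The shallowest, middle and deepest Nrf2 library had 39.4, 11.5 and 18.6 CPM, the same order as for *Eln*, from 400, 130 and 221 reads. *Loxl1* had this order too, over a range of 0.289 on the log2 scale beside 1.77 for *Fbln5*. For *Fbln5* all Nrf2 libraries lay between LacZ and Nrf1. *Fbln5* fell by 2.36 ± 0.25 (SE) on the log2 scale in Nrf1 against LacZ (limma, adjusted p = 9.93e-08) and by 1.24 ± 0.25 in Nrf2 against LacZ (adjusted p = 3.80e-04). The second value was -1.71 without the shallowest Nrf2 library and -0.83 without the middle one. Between Nrf2 and Nrf1 the difference was 1.12 ± 0.25 (adjusted p = 0.00105), and it was 0.64 without the shallowest Nrf2 library. As for *Eln*, the errors of the Nrf2 comparisons are shared over all groups and do not measure the larger spread of the Nrf2 libraries alone.

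**Figure D3:**
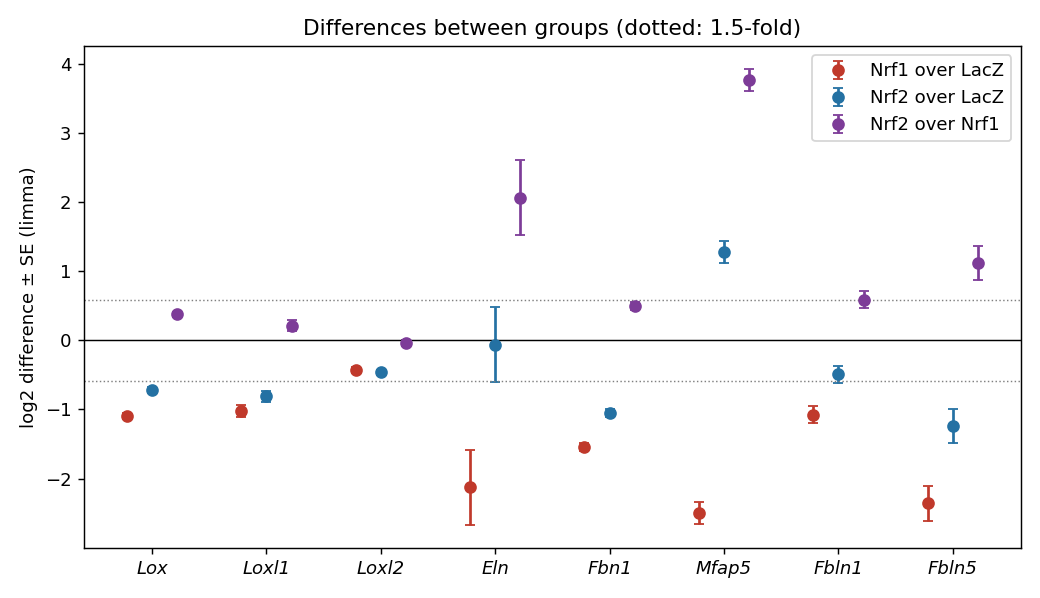
Log2 difference between groups for each measured elastic fibre and crosslinking gene from limma, with bars of 1 SE from the fit over all 9 libraries. Dotted lines mark 1.5-fold. The wide bars are those of *Eln*, with an SE of 0.54, and of *Fbln5*, with an SE of 0.25, and *Mfap5* alone lies above the upper line for Nrf2 over LacZ.

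By the libraries alone, all 8 measured genes were lower in every Nrf1 library than in every LacZ library, where 33.9% of all genes were. Of the 8, 6 were lower and 1 was higher in every Nrf2 library than in every LacZ library, where 33.1% of all genes were lower and 21.3% were higher. Between the factors 5 of the 8 were higher in every Nrf2 than in every Nrf1 library, where 26.5% of all genes were. With 3 libraries against 3, an exact permutation test of a single gene cannot go below a p of 0.1, so the calls rest on the variance that limma shares across genes.

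The ratios of the authors' means gave the same counts for Nrf1 and for Nrf2 against Nrf1. Of the 8 genes 7 were lower by over 1.5-fold in Nrf1 than in LacZ, where 24.3% of the genes in that table were. Between Nrf2 and LacZ 4 were lower and 2 were higher, *Eln* being the gene added, where 15.5% of the genes were lower and 15.6% were higher. In the table of Nrf1 and Nrf2, 4 were higher in Nrf2, where 20.1% of the genes were. The medians of the 8 log2 ratios were -1.25, -0.51 and 0.57, beside -0.03, -0.01 and 0.01 over all genes above 0 in both groups.

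The gene with the ratios over LacZ most like those of *Lox* was *Igf2*, an insulin-like growth factor, at a distance of 0.003 over the 2 log2 ratios of authors' means, followed by *Fgf12* at 0.022 and *Mn1* at 0.030. Among 8388 genes searched, none lay nearer to *Eln* than 0.467, the distance of *Ptgs1*, which encodes cyclooxygenase-1. *Gfpt2*, at 0.639, and *Slitrk5*, at 0.645, followed. This likeness rests on the mean of *Eln* that a single Nrf2 library sets, and it did not hold without it. With the shallowest Nrf2 library left out for every gene, the nearest of 8373 genes were *Vcan* at 0.081, *Nov* at 0.113 and *Plxdc2* at 0.154, and *Ptgs1* lay at 1.43.

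Other genes of the same processes were taken from a list of 34, of which 30 were fitted. In Nrf1 against LacZ 17 of the 30 fell and 1 rose, beside the 17.2% and 8.16% of all genes given above. In Nrf2 against LacZ 6 fell and 1 rose, beside 10.4% and 6.75% of all genes. Between the factors 6 were higher in Nrf2 and 2 were lower, beside 9.97% and 4.09% of all genes. The single gene that rose and the 2 that were lower are near those shares. The medians of the 30 log2 differences were -0.78, -0.44 and 0.23. *Fbln7*, *Emilin2* and *Adamtsl2* of the list were not analysed here.

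Of the other lysyl oxidases, *Loxl3* fell in both groups, by 1.71 ± 0.079 (SE) on the log2 scale in Nrf1 (limma, adjusted p = 2.43e-13) and by 1.15 ± 0.079 in Nrf2 (adjusted p = 2.57e-10). *Loxl4* was not called in either group against LacZ, with differences of 0.47 in Nrf1 and -0.52 in Nrf2, and it was lower in Nrf2 than in Nrf1 by 0.99 on the log2 scale (adjusted p = 4.40e-10). The enzymes of this family did not all move with *Lox*.

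Of 13 other elastic fibre genes fitted, 10 fell in Nrf1 and 3 in Nrf2 against LacZ, beside 17.2% and 10.4% of all genes. None rose in either, beside 8.16% and 6.75% of all genes. The latent TGF-beta binding proteins, a family of microfibril-associated proteins of which *Ltbp2* is the one not known to bind latent TGF-beta, all fell in Nrf1, *Ltbp1* by 1.41, *Ltbp2* by 1.96, *Ltbp3* by 0.89 and *Ltbp4* by 1.75 on the log2 scale (limma, adjusted p at most 2.59e-11). In Nrf2 only *Ltbp2* of the 4 was called, with -1.40 (adjusted p = 2.13e-13), and the values of the others were -0.54, -0.10 and -0.33. *Ltbp1*, *Ltbp3* and *Ltbp4* were called higher in Nrf2 than in Nrf1, by 0.87, 0.79 and 1.41 (adjusted p at most 1.59e-09).

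*Fbn2*, fibrillin-2, which is known as the fibrillin of development, differed between the factors. It fell by 0.84 ± 0.062 (SE) in Nrf1 (limma, adjusted p = 4.93e-10), its value in Nrf2 was -0.01 (adjusted p = 0.935), and the difference between Nrf2 and Nrf1 was 0.83 (adjusted p = 1.32e-09). *Hmcn1*, a large fibulin-like matrix protein, fell by 1.07 in Nrf1 and 0.93 in Nrf2, and *Adamts10*, a metalloprotease that binds fibrillin-1, by 1.38 and 0.88. *Emilin1*, an elastin-binding glycoprotein, and *Adamtsl4*, which binds fibrillin-1, fell in Nrf1 by 0.69 and 0.73, and their values of -0.44 and -0.58 in Nrf2 were under a fold of 1.5.

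Of 6 genes listed for lysyl oxidase processing and copper supply, 3 fell in Nrf1 and 1 in Nrf2, beside 17.2% and 10.4% of all genes. The single gene in Nrf2 is near that share. The gene called in both was *Slc2a10*, with -1.76 in Nrf1 (limma, adjusted p = 7.38e-04) and -1.07 in Nrf2 (adjusted p = 0.031). The other genes fitted from this list were not called in Nrf2. *Slc2a10* encodes a membrane transporter of the GLUT family and is not known to process lysyl oxidase or to supply copper. It rests on 30, 32 and 18 reads in LacZ, 10, 4 and 14 in Nrf1 and 16, 17 and 15 in Nrf2, is below the mean set for naming and was named after its values were seen. *Bmp1*, the protease that removes the propeptide of lysyl oxidase, fell by 1.42 ± 0.068 (SE) in Nrf1 (limma, adjusted p = 4.28e-13), and its value in Nrf2 was -0.44. Between the factors *Bmp1* was higher in Nrf2 by 0.98 (adjusted p = 3.48e-10). *Pcolce*, which enhances procollagen processing by that protease, fell by 1.10 in Nrf1 and had a value of -0.54 in Nrf2. Fibronectin (*Fn1*), on which lysyl oxidase is processed, had no single set of whole reads and was left out of the fit. Its authors' means gave a ratio of 0.756 for Nrf1 over LacZ, 0.446 for Nrf2 over LacZ and 0.587 for Nrf2 over Nrf1, so it lay lowest in Nrf2.

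Of 9 other genes for collagen modification and crosslinking, 3 fell and 1 rose in Nrf1, beside 17.2% and 8.16% of all genes. In Nrf2 1 fell and 1 rose, beside 10.4% and 6.75% of all genes, so the single genes are near those shares. *P4ha2*, a subunit of collagen prolyl hydroxylase, fell by 1.28 in Nrf1 and by 1.13 in Nrf2. *Plod1* and *Fkbp10*, which act in the hydroxylation of collagen lysines, fell by 0.83 and 1.06 in Nrf1, and their values in Nrf2 were -0.56 and -0.47. *Tgm2*, a transglutaminase that crosslinks matrix proteins by another bond, rose in both, by 1.31 ± 0.031 (SE) in Nrf1 (limma, adjusted p = 8.33e-18) and by 0.71 ± 0.031 in Nrf2 (adjusted p = 1.92e-13), against the direction of *Lox*.

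**Figure D4:**
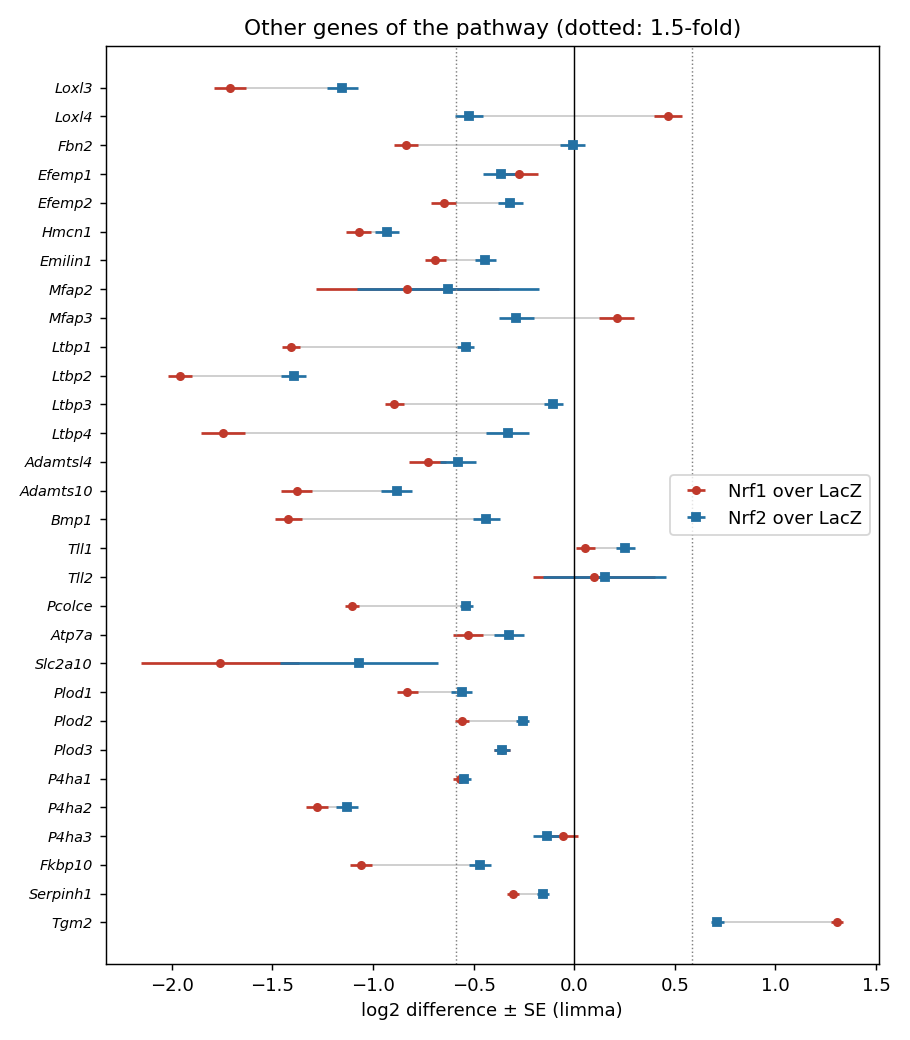
Log2 difference against LacZ for 30 other genes of elastic fibres, lysyl oxidase processing and collagen crosslinking from limma, with bars of 1 SE. Circles are Nrf1, squares are Nrf2, and dotted lines mark 1.5-fold. Most circles lie to the left of their squares, and *Tgm2* alone lies past the upper line, in both groups.

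Cultures of cardiomyocytes hold other cells, and fibroblast markers were lower in Nrf1 than in LacZ, as the elastic fibre genes were. In these bulk samples fewer cells of a type and less RNA per cell cannot be told apart. The summed level of 10 fibroblast markers was 13159 to 14064 CPM in LacZ, 3241 to 3489 CPM in Nrf1 and 6515 to 7061 CPM in Nrf2, the order of groups that *Lox* and *Fbn1* had. All 10 fell in Nrf1 and 8 of them fell in Nrf2 against LacZ, beside 17.2% and 10.4% of all genes. In Nrf2 7 were higher and 1 was lower than in Nrf1, beside 9.97% and 4.09% of all genes. *Fbln1* and *Fbln5* also had the order LacZ, Nrf2, Nrf1 from highest to lowest, without overlap. *Mfap5*, which was highest in Nrf2, did not follow that order. *Loxl1* and *Loxl2* overlapped between Nrf2 and Nrf1, and the Nrf2 libraries of *Eln* lay on both sides of LacZ. The part of the fibroblast markers in these differences was not tested.

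The 9 cardiomyocyte markers fitted summed to 11387 to 12315 CPM in LacZ, 9497 to 9564 CPM in Nrf1 and 11839 to 12237 CPM in Nrf2. *Tnnt2*, cardiac troponin T, lay between 2938 and 4096 CPM over the 9 libraries. The list was not uniform in Nrf1. *Myh7*, *Myl2* and *Tnni3* fell by 1.13, 1.06 and 1.03 on the log2 scale, *Ryr2* rose by 0.77 and the other 5 were not called. In Nrf2 against LacZ all 9 stayed under a fold of 1.5. With no limit on the fold, 4 were lower and 5 higher at an adjusted p under 0.05 (limma). The share of all genes past that threshold alone was not counted. The 10 markers of smooth muscle cells and pericytes summed to 4083 to 4677 CPM in LacZ, 6411 to 6516 CPM in Nrf1 and 5171 to 5487 CPM in Nrf2. *Acta2* and *Tagln*, which are abundant, set this sum and were the 2 markers called higher in Nrf1. Of the other 8, *Myh11*, *Rgs5* and *Pdgfrb* were called lower in Nrf1, and the median log2 difference of the 10 was -0.39. Of all genes 17.2% were called lower and 8.16% higher in Nrf1. *Myh11*, the myosin that defines smooth muscle, had 178 ± 8.12 CPM in LacZ, 84.7 ± 0.668 CPM in Nrf1 and 145 ± 15.1 CPM in Nrf2 (SD, n = 3 each).

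The sums of the lists of scarcer cells were lower in both groups than in LacZ, each in every library. The 10 endothelial markers summed to 237 to 253 CPM in LacZ, 150 to 159 CPM in Nrf1 and 145 to 174 CPM in Nrf2. The 10 leukocyte markers summed to 219 to 328 CPM, 120.2 to 128 CPM and 118 to 126 CPM. The 4 epicardial and mesothelial markers fitted summed to 40.2 to 45.0 CPM, 21.1 to 24.9 CPM and 35.5 to 37.2 CPM. The last sum in Nrf2 is mostly *Upk1b*, which had a difference of 0.30 from LacZ (limma, adjusted p = 0.0166), whereas *Aldh1a2*, *Wt1* and *Msln* fell in Nrf2 by 1.48, 1.01 and 0.88. Of the endothelial markers 7 were called lower in each group against LacZ, and of the leukocyte markers 8. Of all genes 17.2% were called lower in Nrf1 and 10.4% in Nrf2. The endothelial marker *Egfl7* was called higher in Nrf2, by 0.70 (limma, adjusted p = 1.44e-04). The leukocyte marker *Csf1r* had a difference of 0.39 in Nrf1 (limma, adjusted p = 0.0101), under a fold of 1.5. The part of these lists in the elastic fibre genes was not tested either.

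**Figure D5:**
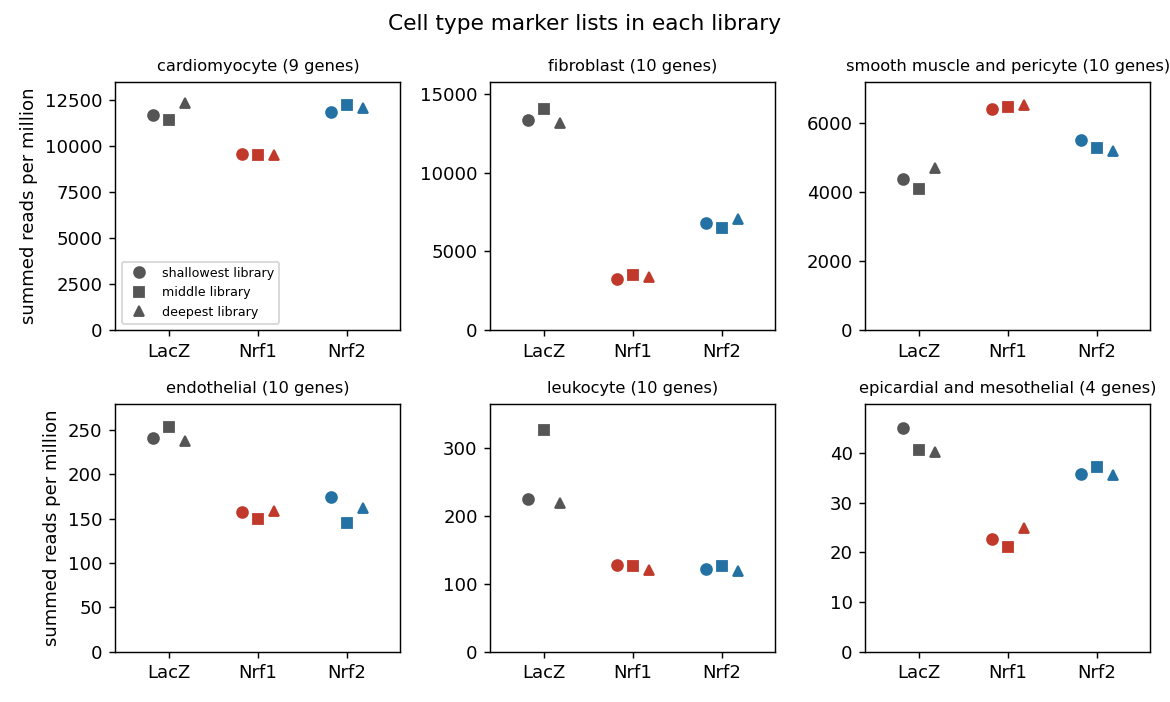
Summed level of 6 lists of cell type markers in each library, in CPM on linear axes that start at 0 and differ between panels. Points are libraries, marked by their depth order within the group. The fibroblast list is at 13159 to 14064 CPM in LacZ and at 3241 to 3489 CPM in Nrf1.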

How the data were processed

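Stranded polyA RNA libraries of 9 samples were read from 1 end. Quality was checked by the authors with FastQC 0.11.4. Alignment to Rnor_6.0 used HISAT2 2.0.4, duplicates were removed with SAMtools 0.1.18, and gene counts came from featureCounts 1.6.0, whose strand setting is not given in the sources used here. Removing duplicates of single-end reads can lower high counts, which was not tested. The signal deposited by the authors is the mean of a group's read counts divided by size factors, in a table for each pair of groups, and 0 columns of single samples were left unused. The deposited fold changes, p-values and adjusted p-values are those of the authors' own comparisons (the methods name edgeR 3.20.5), and they were not used.

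Each group stands in 2 tables with different size factors, and a mean is a sum of whole reads times the value of 1 read in each library, which recurs among the lowest means. Whole reads in 3 libraries that gave both means within rounding were sought for 14443 genes. A single set was found for 14442 genes in LacZ and for all 14443 in Nrf1 and in Nrf2. After moving the means of the elastic fibre genes by up to 1 part in 10000, 0 of 4800 trials had a solution. For the most abundant genes the solution is less certain. Reads, SDs and SEs belong to these recovered libraries and not to the authors' means.

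Differences were tested with limma 3.58.1 in R 4.3.3 (variance trend) on log2 CPM with 0.5 reads added, over all 9 libraries and 14442 genes, with Benjamini-Hochberg adjustment, so log2 differences of low genes are understated. Calls needed an adjusted p under 0.05 and a fold past 1.5, the fold the paper's methods use. The steps were tested on simulated data. Alternatives were other cutoffs, filters, scalings, voom weights, fits of 2 groups and leaving out each library. Of the other genes, those past 1.5-fold in any table with a mean of at least 100 were named. The genes, lists and rules were chosen with earlier results of these data known. Symbols shared by several rows, 4 in each LacZ table, and 26 written as dates were not matched. Single cell type markers were named after their values were seen.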

Additional observations from a re-analysis of the deposited data

How the results depend on the processing

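No paired analysis was possible because the tables carry no library numbers, and the recovered libraries cannot be tied to those of the labels. The number of genes past the fold cutoff between Nrf2 and LacZ was 6 from the authors' means and 1 at a cutoff of 2. For *Eln* between Nrf2 and LacZ the log2 ratio of means was 0.83 and ranged from -0.64 to 1.35 when each library was left out. The limma difference of *Eln* was -0.06 and became 0.023 with median-of-ratios scaling, a setting chosen after seeing the data, and it ranged from -1.06 to 0.95 when each library was left out. *Loxl2* between Nrf2 and Nrf1 ranged from -0.077 to 0.006 in the same way. *Loxl1* between these groups had an adjusted p of 0.0693 with voom weights. Of the limma differences of the 8 genes under leaving out each library, 208 kept their direction and side of the threshold. With the same sign 5 lost the threshold and 1 passed it, and 2 changed sign. The sign change of *Eln* between Nrf2 and LacZ without the middle Nrf2 library passed the threshold too. Under the other settings, which were chosen after seeing the data, 118 kept both, 1 lost the threshold and 1 changed sign. The calls by limma stayed at 7 for Nrf1 over LacZ, lay between 5 and 7 for Nrf2 over LacZ and between 3 and 4 for Nrf2 over Nrf1, where *Fbln1* sat at the fold limit. With 3 libraries a group, a sample far from the others was not tested for. The cause of the changes was not tested beyond naming the library left out. The genes most like *Eln* without the shallowest Nrf2 library were sought after seeing the data. *Mfap5* in Nrf1 rests on 15 to 26 reads a library.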

Other observations

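Among genes of at least 10 CPM in the Nrf2 libraries, 15 had a range of at least 1 on the log2 scale. Of these, 4 had the library order of *Eln*, highest in the shallowest and lowest in the middle library. They were *Eln* itself, *Fbln5*, *Acan* and *LOC310926*, named after their values were seen. The share of all genes with this order was not counted. *Acan*, which encodes the cartilage proteoglycan aggrecan, had 28.4, 10.4 and 17.4 CPM in the shallowest, middle and deepest Nrf2 library, 24.0, 29.6 and 26.5 CPM in LacZ and 4.92, 6.59 and 7.40 CPM in Nrf1. *LOC310926* had 4107, 1115 and 1436 CPM in Nrf2, 3137, 3691 and 1179 CPM in LacZ and 3936, 3726 and 4216 CPM in Nrf1, so it varied among the LacZ libraries too. The other 11 of the 15 had other orders, among them *Col1a2*, a fibrillar collagen chain, with 6.01, 19.1 and 24.5 CPM in Nrf2 and 15.8, 45.1 and 13.2 CPM in LacZ.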
